A study of Mus musculus with 6 samples.

Results

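Annotated extensions at the upstream end of exons were examined in RNA labelled as mouse podocyte RNA. They are the stretches that an exon gains when splicing uses an earlier 3′ splice site. Members were chosen from the authors' exonic parts, which cut exons at each edge that any annotated transcript uses. A part was taken when it adjoined another part of its gene on the downstream side alone, listed fewer transcripts than that neighbour, and when all its listed transcripts had parts further upstream. Genes joined with overlapping genes were left out. The rule found 10019 extensions in 6028 genes, of 368092 parts in all. Every coordinate is on the mouse build NCBIM37, as in the files.

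Polyadenylated RNA labelled as podocyte RNA, from mice of the C57BL/6 background, was sequenced in 3 libraries of wild type genotype (WT) and 3 of CD2BP2 knockout genotype (KO). The labels describe an allele with loxP sites, the downstream one after exon 3, from which an FLPO deleter strain removed the neomycin cassette, and name no Cre driver or age for the podocyte samples. Their treatment text instead describes bone marrow macrophages from MxCre mice and littermate controls given poly (I:C), and whether it applies to these libraries cannot be told from the labels. They do not say that the libraries came from separate mice, so a p-value here reflects how far these 6 libraries scatter, and that scatter could be technical. The libraries held 186022084 to 255554573 counts over all parts. The targeted gene, Cd2bp2, stood at 61.0, 61.8 and 60.8 CPM (the count scaled to the library's total) in WT1, WT2 and WT3 and at 48.4, 47.3 and 51.0 CPM in KO1, KO2 and KO3, so its RNA was lower but still present (log2 -0.32, edgeR adjusted p = 0.0297, a call that was lost without WT1, WT2 or KO1 and with a term for the replicate number). Summed over 7 podocyte marker genes the libraries held 21100 to 23800 CPM in WT and 18700 to 20500 CPM in KO. Markers of other cells were present too. The sums of 7 endothelial markers were 6820 to 7080 CPM in WT and 6240 to 6630 CPM in KO. Those of 7 mesangial and smooth muscle markers were 2580 to 2860 CPM in WT and 2420 to 2920 CPM in KO. For 7 distal nephron markers (loop to collecting duct) the sums were 174 to 331 CPM in WT. In KO1, KO2 and KO3 they were 513, 1370 and 257 CPM. For 7 proximal tubule markers they were 344 to 522 CPM in WT and 522 to 768 CPM in KO. Macrophage markers (7 listed, 6 tested as genes) summed to 90.8 to 119 CPM in WT and 176 to 194 CPM in KO. In such bulk RNA, fewer cells of a type and less RNA per cell cannot be told apart.

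The 3′ splice site, or acceptor, is where an intron ends. It is read by the splicing machinery as a run of pyrimidines (C and T) followed by AG: U2AF binds the run and the AG, and the AG is used in the second step of splicing, inside a spliceosome whose core holds the U5 particle. CD2BP2 is a protein of the U5 particle that leaves before the spliceosome becomes active. Where acceptors lie close together, the same exon can begin at either one. The shortest common case is a tandem acceptor, in which the patterns NAG and NAG follow each other directly and the second NAG is either kept in the messenger RNA or removed with the intron.

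The members were of 2 kinds, and the label of alternative acceptor fitted one of them. For 4689 of the 10019, at least 1 transcript without the extension was itself spliced from an upstream exon to the inner edge, so that edge is an annotated second acceptor. For the other 5330, each transcript without the extension began at the inner edge, which is then an annotated transcript start and not a splice site. Both kinds meet the rule. Counts over all extensions below hold both, with the second acceptors given beside them.

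Sequences were read from the GENCODE M21 transcript of the same identifier, where that transcript had the same total length as in the files, which held for 8529 extensions (85.1%). The following are shown because they carry the acceptor patterns. The extension is in capitals. Up to 10 bases of the exon before it and of the transcript after it, which begins with the neighbour, are in lower case. The intron that lies before the extension is not part of the transcript. First come tandem acceptors of highly expressed genes (Sparc, Gnas, Txnip, H3f3a) and of the splicing kinase gene Clk2 and the endosomal sorting gene Hgs.
Sparc, chr11:55220779-55220781, minus strand, coding: ggcagcccctCAGcagactgaag
Gnas, chr2:174167151-174167153, plus strand, coding: ttaacggagaTAGtgagaaggcc
Txnip, chr3:96362812-96362814, plus strand, coding: cagcctacagCAGgtgagaacga
H3f3a, chr1:182733334-182733336, minus strand, coding: tgctttgcagGAGgcaagtgagg
Clk2, chr3:88972617-88972619, plus strand, coding: ggtcccgaagCAGctatgatgac
Hgs, chr11:120340401-120340403, plus strand, coding: ctttagtgagCAGtaccagaatg
Next come longer extensions, in which the capitals end in the AG of the second acceptor with pyrimidines before it, and the 6 bases of Cd2bp2.
Tmem120b, chr5:123551620-123551633, plus strand: aagaatggGTCTTTCCTTCCAGgctctact
Bcl2l1, chr2:152655839-152655856, minus strand, in the leader: ttgaatCTCTCTCTCTCTCTTCAGaacctt
Dnajc7, chr11:100452366-100452375, minus strand: cgcttgtagaTTCTCTCCAGaatgccaaag
Sf3a2, chr10:80266546-80266564, plus strand: tcaagCCTCTGACTTTCTCCCTAGgtgcc
Cd2bp2, chr7:134338976-134338981, minus strand, in the leader: accggcctctGTCCAGctggaggaaa
Last, Rpl6 shows an inner edge that is a transcript start, in which the capitals are the start codon letters.
Rpl6, chr5:121655415-121655417, plus strand, coding: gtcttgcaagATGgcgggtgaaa

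The sequences set the kinds apart. Of the second-acceptor extensions with a matched sequence, 3460 of 3750 (92.3%) ended in AG, against 389 of 4779 (8.14%) of those whose inner edge is a transcript start. Among extensions of at least 18 bases, the 15 bases before the last 3 were 66.7% pyrimidine at the median for second acceptors (n = 2199) and 46.7% for transcript starts (n = 3885). At least 80% of these 15 bases were pyrimidines in 28.6% of the former and 3.22% of the latter. Neither feature was used by the rule, but the kinds were divided by annotated splicing to the inner edge. Given the acceptor pattern described above, the difference in AG follows largely from that division.

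Lengths differed as well. A length of exactly 3 bases was found in 762 of the 4689 second-acceptor extensions (16.3%), followed by 4 bases (231), 5 bases (168), 2 bases (125) and 1 base (112). Of 591 extensions of 3 bases with a sequence, 584 (98.8%) read NAG: 409 were CAG, 88 AAG, 59 TAG and 28 GAG. The median length was 24 bases for second acceptors and 55 bases for transcript starts. Of the matched second-acceptor extensions 2358 (62.9%) lay in coding sequence of the reference transcript, 377 (10.1%) in the leader before the start codon and 119 (3.17%) after the stop codon, while 284 crossed such a border and 612 belonged to noncoding transcripts. In coding sequence 1234 of 2358 (52.3%) had a length that is a multiple of 3, which keeps the reading frame. Without those of 3 bases it was 784 of 1908 (41.1%). Per length class the share was 27.5% for the other lengths up to 12 bases, 54.7% for 13 to 27 bases and 39.7% above 100 bases.

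**Figure D1:**
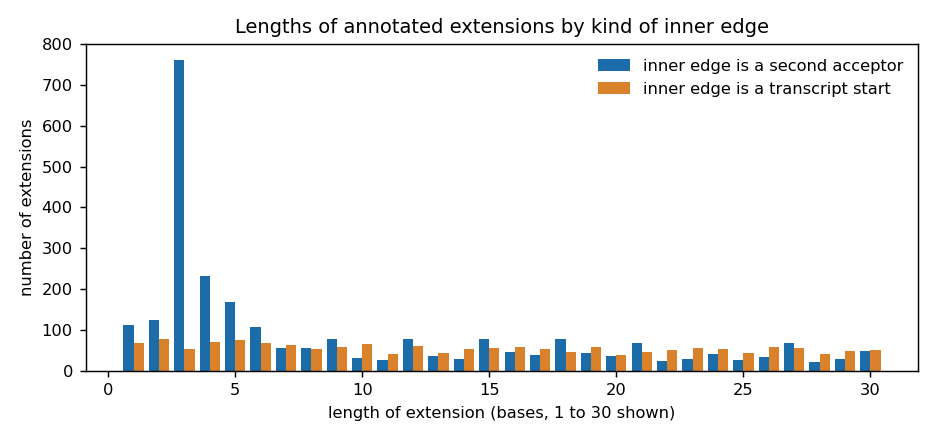
Number of extensions (y axis) by length in bases (x axis, 1 to 30 bases), with blue bars for extensions whose inner edge is a second acceptor and orange bars for those whose inner edge is a transcript start. The blue bar at 3 bases stands at 762, and the orange bars show no such peak.

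How densely an extension was read relative to its neighbour describes how much of the RNA held it. Counts depend on length, since a read is counted in each part that it touches. The reads were 101 bases long, the most frequent number of bases covered by a single read in long parts of every library. Relative density was therefore taken as the count over the length plus 100, extension over neighbour, and a value of 1 means equally dense. Of 10019 extensions 6750 in 4054 genes were tested, with a mean of at least 10 counts, and at least 20 in the neighbour. Of the others, 1008 had no count in any library, and 611 were below the minimum beside a neighbour that reached its own.

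Second-acceptor extensions ranged from dense to sparse. Of 2849 tested, 1666 (58.5%) had a relative density of at least 0.8, so they were read about as densely as the neighbour, 881 (30.9%) lay between 0.1 and 0.8, and 302 (10.6%) were under 0.1. Of the 3901 with a transcript start as inner edge, 3504 (89.8%) were at 0.8 or above and 7 (0.179%) under 0.1. The medians per library ran from 0.858 to 0.864 for second acceptors and from 0.972 to 0.974 for transcript starts, with KO libraries inside or next to the WT range. Reads of unspliced RNA also fall on an extension, and their share of these counts was not tested. Reads spliced across an extension were not counted in it where the ratio was near 0: of 659 second-acceptor extensions beside a neighbour with a mean of at least 1000 counts, 107 had under 0.02 of its count.

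Sparse extensions held more of the acceptor's pyrimidine run. In those under 0.1 with at least 18 bases (n = 199), 48.2% had at least 80% pyrimidines in the 15 bases, against 36.3% between 0.1 and 0.8 (n = 383) and 15.4% at 0.8 and above (n = 833). These are shares of annotated extensions, which are not replicates, and are given as a description.

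Tandem acceptors were mixed more often than the other lengths. Of 469 tested extensions of 3 bases, 273 (58.2%) lay between 0.1 and 0.8, against 19.7% to 30.1% in the other length classes. Their density went with the base in front of the AG. The median was 0.62 for CAG (n = 275), 0.659 for TAG (n = 39), 0.927 for AAG (n = 60) and 0.995 for GAG (n = 21). At least 0.8 was reached by 30.2% of CAG, 28.2% of TAG, 71.7% of AAG and 90.5% of GAG. In every library the AAG and GAG medians were above the CAG and TAG medians, with CAG at 0.611 to 0.638 in WT and 0.626 to 0.65 in KO and GAG at 0.953 to 0.994 in WT and 0.973 to 1.02 in KO. Extensions longer than 3 bases also had higher medians for AAG and GAG, at 0.868 for CAG, 0.8 for TAG, 0.948 for AAG and 1.01 for GAG at the end. As background, CAG and TAG are common acceptors in vertebrates and GAG is a rare one.

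**Figure D2:**
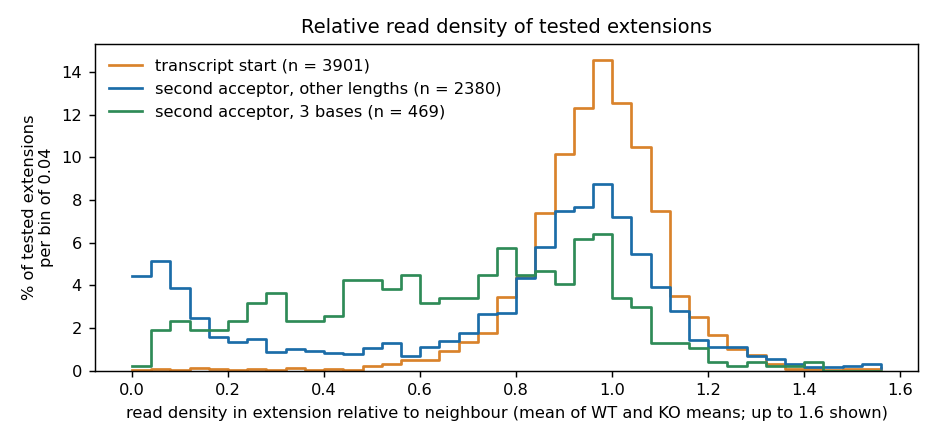
Percent of tested extensions (y axis) in bins of relative read density (x axis, a ratio; the mean of the WT and KO means), for inner edges that are transcript starts (orange), second acceptors of 3 bases (green) and second acceptors of other lengths (blue). The orange line has one peak near 1, the blue line has a further rise under 0.1, and the green line is spread between.

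The comparison of KO with WT asks whether the ratio of an extension to its neighbour differed between the genotypes. No extension passed the test. With edgeR on the counts of extension and neighbour, 0 of 6750 extensions had an adjusted p under 0.05, where 0.00458% of the 65520 adjoining pairs of parts tested together did (3 pairs). At an unadjusted p under 0.05 there were 146 extensions (2.16%), against 4.74% of all pairs. DESeq2 called 2 extensions (0.124% of all pairs), edgeR with the neighbour as offset 0 (0.0122% of all pairs) and limma 0 (0.0122% of all pairs). At an unadjusted p under 0.05, DESeq2 had 55, edgeR with the offset 226 and limma 273 of the 6750 extensions. The unadjusted share over all pairs was not taken for these fits, so these counts have no background beside them. The ratios of the 3 KO and 3 WT libraries did not overlap for 700 extensions (10.4%), against 11.1% of all pairs, with KO higher for 316 (5.28% of all pairs) and lower for 384 (5.81% of all pairs). The kinds differed in the unadjusted share. For second acceptors it was 120 of 2849 (4.21%), with 89 lower in KO and 31 higher, and 327 (11.5%) did not overlap, while for transcript starts it was 26 of 3901 (0.666%) and 373 (9.56%). Within second acceptors the unadjusted share was 6.13% at 13 to 27 bases, 4.77% at 28 to 100 bases and 6.92% over 100 bases, beside 4.74% of all pairs, and 1.71% at 3 bases and 1.82% at the other lengths up to 12 bases. None of these extensions passed after adjustment. The unadjusted share also went with relative density (defined above). Over all pairs it was 10.3% under 0.1 and 1.58% at 0.8 and above. For second acceptors it was 11.3% and 1.8%, and for transcript starts 0.514% at 0.8 and above. The part of density in the differences between kinds and lengths was not tested.

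The intervals, taken from the F statistic of the fit, describe how large a shift could have been missed, but at low counts they can be too narrow. Prpf18, with 14 to 19 extension counts per library, had an interval of -0.61 to 0.08 beside an unadjusted edgeR p of 0.353. The shares of intervals within 2-fold and 1.5-fold may therefore be too high. The log2 change of the ratio, KO against WT, had a median of -0.0017 over the 6750 extensions (all pairs -0.0019), a 5% to 95% range of -0.237 to 0.195 and a median SE of 0.0735. The 95% interval lay within a 2-fold change either way for 6470 of them (95.9%, all pairs 89.5%), and within 1.5-fold for 5828 (86.3%, all pairs 70.0%). For second acceptors it was 2605 of 2849 (91.4%) within 2-fold and 2169 (76.1%) within 1.5-fold. Estimates of at least 2-fold were found for 12 extensions, all second acceptors, and for 309 of all 65520 pairs. For the 469 tandem acceptors the median change was 0.0018, 8 had an unadjusted p under 0.05 (3 higher, 5 lower), and 444 intervals (94.7%) lay within 2-fold.

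**Figure D3:**
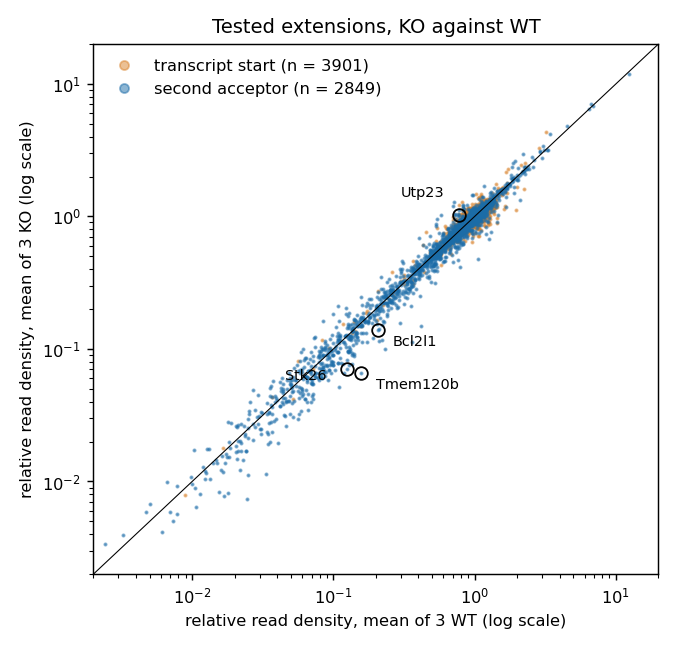
Relative read density of each tested extension as the mean of 3 KO libraries (y axis, log scale) against the mean of 3 WT libraries (x axis, log scale), for second acceptors (blue) and transcript starts (orange), with the line of equality and 4 circled genes. Points follow the line over the whole range and spread wider where the density is low; Stk26, Tmem120b and Bcl2l1 lie below it and Utp23 above.

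The extensions with the smallest p of each length class show the size of differences that did not pass. Stk26, which encodes a serine/threonine kinase, has an extension of 1011 bases (chrX:48237755-48238765) that the reference gives to a retained-intron transcript. Its counts were 423, 363 and 478 in WT1, WT2 and WT3 and 262, 170 and 239 in KO1, KO2 and KO3. As a percent of the neighbour's count these were 66.6, 63.8 and 66.8 in WT and 39.3, 33.1 and 39.6 in KO, so the groups did not overlap. The log2 change was -0.81 (SE 0.07, 95% interval -0.99 to -0.63; edgeR adjusted p = 0.114, DESeq2 adjusted p = 3.14e-06, and 3.14e-06 to 0.658 over 16 alternatives). Its relative density was low in both groups, at 0.124 in WT and 0.0702 in KO.

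Tmem120b, a membrane protein gene, has an extension of 14 bases that the reference places in a transcript subject to nonsense-mediated decay, and that ends in the pyrimidine run shown above. Its counts were 38, 35 and 43 in WT and 21, 13 and 25 in KO. These were 11.4, 10.6 and 11.7% of the neighbour in WT and 4.84, 4.26 and 5.09% in KO, with every KO library under every WT library. The log2 change was -1.22 (SE 0.12, 95% interval -1.50 to -0.94; edgeR adjusted p = 0.114, DESeq2 adjusted p = 0.0194, and 0.0194 to 1.0 over 15 alternatives). Stk26 and Tmem120b were the 2 extensions called by DESeq2, which was not rerun with a library left out.

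Bcl2l1 encodes the apoptosis regulator Bcl-x, and its 18-base extension lies in the leader. The ratio was 5.75, 5.12 and 5.54% in WT and 3.58, 3.70 and 3.83% in KO, again without overlap. The log2 change was -0.56 (SE 0.07; adjusted p = 0.174). Relative density was low in both groups, at 0.207 ± 0.0120 in WT and 0.140 ± 0.00473 in KO (SD over 3 libraries each).

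Utp23, which encodes a factor of ribosome assembly, lay on the other side. Its 123-base extension (chr15:51713697-51713819) stood at 33.7, 32.4 and 35.0% of the neighbour in WT and 44.7, 45.4 and 44.3% in KO. The log2 change was 0.41 (SE 0.06; adjusted p = 0.277).

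Of the remaining 6, the co-chaperone gene Dnajc7 went from 3.08 ± 0.19% in WT to 1.72 ± 0.24% in KO (SD over 3 libraries each). The transporter gene Slc35a4 was at 16.3 ± 1.28% and 10.6 ± 1.17%. Mbd6, of the methyl-CpG-binding domain family, was at 24.2 ± 1.88% and 17.1 ± 0.766%. These 3 had log2 changes of -0.83, -0.61 and -0.49 with adjusted p of 0.333, 0.417 and 0.430. Among extensions of 3 bases the smallest p were those of Hgs, at 10.4 ± 1.19% in WT and 14.0 ± 1.24% in KO (log2 0.40, adjusted p = 0.758), and of Mycbpap, at 11.3 ± 2.14% and 5.94 ± 0.709% (-0.93, adjusted p = 0.877). The Mycbpap extension held few counts, 9, 7 and 13 in WT and 12, 8 and 11 in KO. Its neighbour had 74, 79 and 101 in WT and 187, 156 and 175 in KO, so the ratio fell as the neighbour rose. Ccdc186, whose inner edge is a transcript start, was at 17.2 ± 0.528% and 15.0 ± 0.705%. In all 10 the groups did not overlap, and they were picked by their p.

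**Figure D4:**
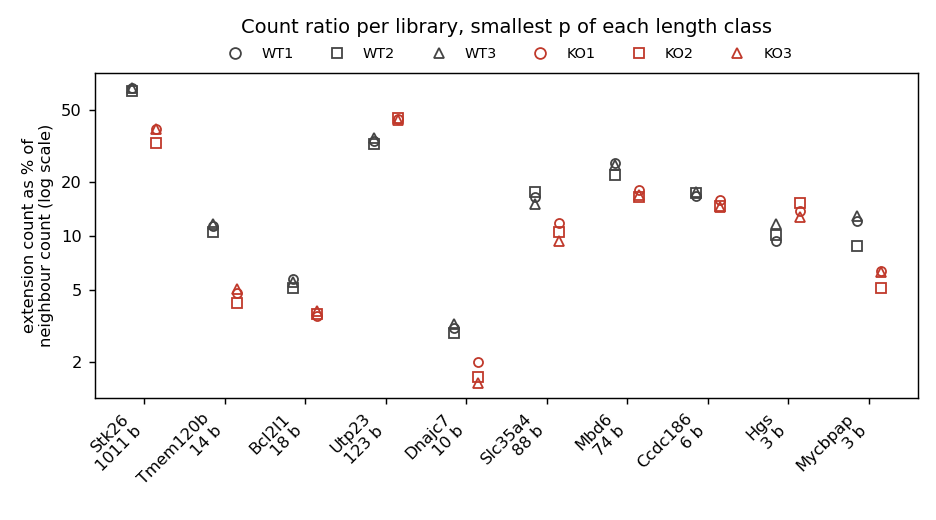
Count of the extension as a percent of its neighbour's count (y axis, log scale) in each of 6 libraries (WT grey, KO red; a symbol shape per replicate number), for the 2 extensions with the smallest p in each of 5 length classes, with their length in bases (b). WT and KO symbols do not overlap for any of the 10 genes, and no gene passed the adjusted test.

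The 3-base extensions with the most reads in their neighbours came next, and their intervals all held 0. Gnas, which encodes the stimulatory G protein alpha subunit, kept its TAG in a small part of the RNA: its ratio was 13.3, 13.3 and 12.0% in WT and 12.5, 12.4 and 12.3% in KO. The matching relative density was 0.189 ± 0.0109 in WT and 0.182 ± 0.00134 in KO (SD over 3 libraries each; log2 change -0.05, 95% interval -0.16 to 0.06). Txnip, a regulator of glucose uptake, kept its CAG at a density of 0.536 ± 0.00589 in WT and 0.544 ± 0.00594 in KO (log2 0.02, interval -0.04 to 0.08). Sparc, which encodes a matrix glycoprotein, was at 0.816 and 0.807 (interval -0.07 to 0.03), with each KO library just under the WT libraries. The Sparc neighbour is itself only 3 bases long, so the parts can share most of their reads. Its density values describe the extension against those 3 bases alone. The histone variant gene H3f3a, with a GAG, was at 0.922 and 0.930 (-0.04 to 0.07). The G protein beta subunit gene Gnb1 was at 0.263 and 0.253 (-0.18 to 0.07). Rpl6, a ribosomal protein gene whose edge is a transcript start, was at 0.135 and 0.132, with a wider interval of -0.24 to 0.18. The Gnas and H3f3a parts overlap another gene and the counts carry no known strand, and H3f3a and Rpl6 belong to genes with many near-identical copies, so their division of reads is uncertain.

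Of the gene groups looked at, none held an extension past the test. Slit diaphragm and podocyte identity genes had 18 tested extensions in 13 genes, 7 of them second acceptors and 0 at an unadjusted p under 0.05, with a median log2 change of -0.0023 and a range of -0.144 (Kirrel2) to 0.153 (Magi1). The smallest p there were those of the podocyte membrane protein gene Thsd7a (density 0.957 in WT, 0.922 in KO), the giant cadherin gene Fat1 (0.745, 0.768) and the transcription factor gene Dach1 (1.17, 1.15). Their 95% intervals were -0.13 to 0.02, -0.02 to 0.11 and -0.09 to 0.04 on the log2 scale. The inner edge was a transcript start in Thsd7a and Fat1 and a second acceptor in Dach1. Actin cytoskeleton regulators had 38 in 22 genes, 12 of them second acceptors, 0 unadjusted, with a median of -0.0016 and a range of -0.419 (Tpm2) to 0.11 (Enah). In the tropomyosin gene Tpm2 the 162-base extension was at 118, 113 and 146% of its neighbour in WT and 94.6, 65.4 and 114% in KO, and the groups overlapped. Kank1 and Cttn, which encode an adhesion adaptor and cortactin and whose edges are transcript starts, had log2 values of -0.10 (interval -0.21 to 0.01) and 0.07 (-0.02 to 0.16). Basement membrane and integrin adhesion genes had 36 in 15 genes, 19 of them second acceptors, 0 unadjusted, with a median of 0.0055. The laminin gene Lama5 had a 2-base extension at 33.8 ± 0.86% in WT and 35.5 ± 0.107% in KO (interval -0.01 to 0.15) as a second acceptor. At transcript starts, its 111-base extension had an interval of -0.03 to 0.13 and that of the integrin gene Itgav one of -0.03 to 0.12.

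Among genes of the splicing machinery itself, U5 and tri-snRNP genes had 18 tested extensions in 7 genes, 10 of them second acceptors and 1 lower at an unadjusted p under 0.05, with a median of 0.001. That one was a 58-base extension of Prpf3, which encodes a U4/U6 protein, at 8.81, 6.60 and 9.92% in WT and 7.2, 5.22 and 4.96% in KO, with overlapping groups (log2 -0.54, interval -1.05 to -0.03, adjusted p = 1.0). Prpf31 (18 bases) was at 49.3 ± 3.2% and 44.3 ± 2.74%. The U5 GTPase gene Eftud2 has a 3-base extension that reads ATG and was sparse, at a density of 0.174, 0.111 and 0.0968 in WT and 0.0922, 0.0994 and 0.0922 in KO. The groups overlapped, and its log2 change of -0.41 was -0.13 without WT1. Cd2bp2 itself has a 6-base extension in its leader, added here after its values were seen. It stood at 6.46, 4.78 and 8.12% of its neighbour in WT and 7.69, 4.85 and 7.51% in KO, so KO lay inside the WT range (log2 0.04, interval -0.58 to 0.66).

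Core spliceosome and acceptor recognition genes had 18 in 13 genes, 9 of them second acceptors, 0 unadjusted, with a median of -0.0059. Sf3a2, of the U2 particle, was at 3.58 ± 0.467% in WT and 4.86 ± 0.952% in KO (interval -0.02 to 0.98), Sf3b3 at 88.0 ± 2.93% and 92.2 ± 2.42%, and Prpf18, a factor of the second splicing step, at 3.26 ± 0.326% and 2.72 ± 0.152%. SR protein, hnRNP and regulator genes had 66 in 36 genes, 25 of them second acceptors, 0 unadjusted, with a median of -0.0006 and a range of -0.390 (Ptbp1) to 0.353 (Hnrnpc). The tandem CAG of Clk2, a kinase of SR proteins, was kept at a density of 0.489 in WT and 0.537 in KO (interval 0.00 to 0.29). The 165-base extension of the polypyrimidine tract binding protein gene Ptbp1 was sparse, at 0.0306 and 0.0229, and that of Acin1 was at 0.566 and 0.474.

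Against its whole gene, an extension can move together with its neighbour. With diffSpliceDGE in edgeR, 3 of 7077 extensions passed (0.0448% of 218768 parts did), in Stk26, Nebl and the unnamed gene C030005K06Rik, all named after their values were seen. Stk26 had a usage change of -0.74 (adjusted p = 0.0378). Nebl, which encodes the actin-binding protein nebulette, has an extension beside a transcript start, with 86, 109 and 116 counts in WT and 316, 137 and 309 in KO, a usage change of 1.33 (adjusted p = 0.00832). Its 2-base neighbour rose alike, and the ratio between them was 157 ± 14.1% in WT and 159 ± 6.53% in KO. In C030005K06Rik the usage change was 1.30 (adjusted p = 0.0181) and the ratio to the neighbour 151 ± 53.8% and 161 ± 11.8%. This pair of parts overlaps another gene and the counts carry no known strand, so the gene its reads came from is uncertain. The count of 3 was 0 without WT1, WT2, WT3 or KO1, 1 without KO3 and 2 without KO2.

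At the level of whole genes, 6 of 36 genes chosen by the naming rule or added to it differed between KO and WT in edgeR (3.37% of 19742 genes did). Mycbpap was higher by 0.71 on the log2 scale, and Txnip (-0.69), Bcl2l1 (-0.63), Stk26 (-0.46), Cd2bp2 (-0.32) and Ccdc186 (-0.28) were lower, with adjusted p of 0.0212 to 0.0479. The count was 0 without WT1, WT2 or KO1, 1 without KO2 and 3 without WT3 or KO3, so the call of each of the 6, Cd2bp2 included, was lost when WT1, WT2 or KO1 was left out. With a term for the replicate number the count was also 0.

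Among sparse extensions, KO2 stood apart. For the 302 second-acceptor extensions with a density under 0.1, the log2 ratio over the mean WT ratio had a median of -0.303 in KO2, beside -0.0188 in KO1, 0.0198 in KO3 and -0.0256 to 0.0247 among the WT libraries. For the 1666 at 0.8 and above, the largest of the 6 medians was 0.00555. The same library was low over all 11365 pairs with a density under 0.1, at -0.288, beside 0.0458 in KO1 and 0.125 in KO3, so this was not particular to extensions. KO2 was also the library with 1370 CPM of distal nephron markers, whose part in the result was not tested. Of the 146 extensions with an unadjusted p under 0.05, 101 were lower in KO and 45 higher (all pairs 2.5% lower, 2.24% higher). Without KO2 it was 85 lower and 69 higher of 154, so 55.2% were lower, against 69.2% with all libraries. Over all pairs the lower share went from 52.7% to 35.8% in the same fits, so extensions had a larger lower share than all pairs with and without KO2, a difference that was not tested. Without KO2 the median change of the sparse second-acceptor extensions went from -0.101 to -0.00511. Stk26, Tmem120b and Bcl2l1 were lower in each of the 3 KO libraries.

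**Figure D5:**
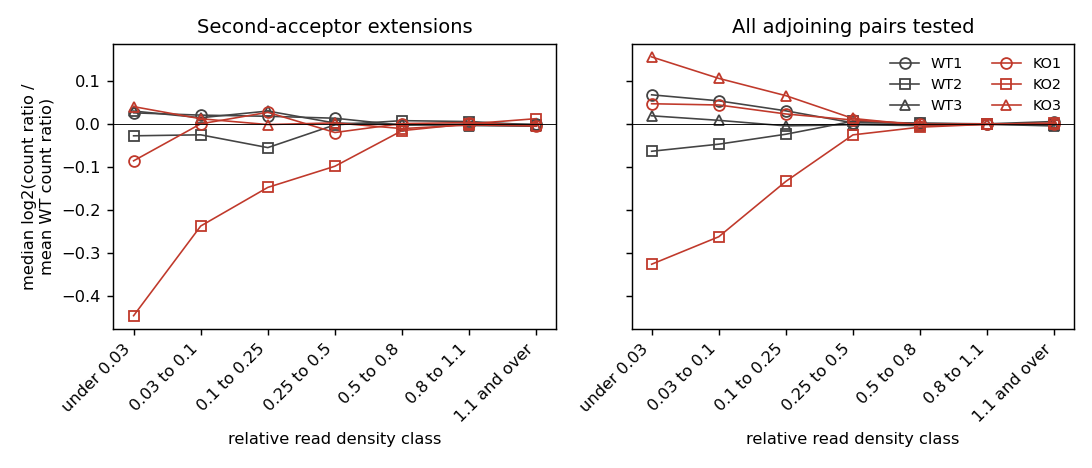
Median log2 of the count ratio over the mean WT ratio (y axis) in classes of relative read density (x axis) for second-acceptor extensions (left) and all adjoining pairs tested (right), one line per library (WT grey, KO red). KO2 falls below the others in the classes under 0.5 in both panels, and the 6 lines meet near 0 from 0.5 upward.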

How the data were processed

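The authors' deposited tables give raw read counts, covered bases, length and the covered fraction for each exonic part of the Ensembl 67 annotation of NCBIM37, per the file headers. TopHat 1.4.1 stands in the submitters' processing notes beside the human build GRCh37, while the headers name a mouse build. No source used here gives the counter or its strand setting.

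Symbols were matched by Ensembl identifier (82 extensions had none). All 65520 adjoining pairs of parts of single genes with unequal transcript numbers and means of at least 10 and 20 counts were fitted together with edgeR 4.0.16 in R 4.3.3: quasi-likelihood, 2 columns per library, a term per library, which takes up depth, and a part by genotype term, with Benjamini-Hochberg adjustment. Alternatives used DESeq2 1.42.0, limma 3.58.1 (log2 ratio, 0.5 added), a neighbour offset, diffSpliceDGE, other filters, a replicate block and left-out libraries. The fit was also run on simulated counts, drawn without reads shared between extension and neighbour. There 4.83% of unchanged pairs of all kinds had an unadjusted edgeR p under 0.05. In the data it was 4.74% of all pairs and 0.666% of transcript-start extensions. Since reads are shared in the data, the simulation cannot show how the test performs on short extensions. Members, lists and density classes were chosen with earlier results of these data known. Named were extensions past the test (none), the 6 of 3 bases with the highest neighbour count, and the smallest p of each list (3) and length class (2), besides the extremes of each list; Nebl, C030005K06Rik and Cd2bp2 were added after their values were seen. Whether equal replicate numbers pair the libraries is not known. At most 2.0% of extension counts were equal between any 2 libraries, so none was counted as a duplicate.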

Additional observations from a re-analysis of the deposited data

How the results depend on the processing

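The count of 0 extensions past the test was also 0 with the neighbour offset, limma, no filter, a minimum of 50 counts, the replicate block, no overlap with other genes, extensions of at least 10 bases and each library left out (0 to 0). It was 2 with DESeq2 and 3 with usage against the gene, under TMM and RLE alike. The median log2 change of -0.0017 was -0.0038 with usage against the gene (TMM and RLE) and -0.0035 to -0.0008 with a library left out, the lowest without WT3 and -0.0034 without KO3. It was -0.0017 with the replicate block. Correlations of deviations between equal replicate numbers were 0.05 to 0.068 over all pairs, above those between different numbers (-0.072 to 0.001). Over extensions they were -0.004 to 0.025, within the range of different numbers (-0.058 to 0.042). Whether the numbers pair the libraries cannot be told from these small values. Chosen after seeing the data, usage calls without each library numbered 0 to 2, against 3. Gene calls among the 36 named genes numbered 6, and 0 with a replicate block or 0 to 3 without a library. Of 564 alternative values of the 37 named extensions, 538 kept their direction and side of the threshold, 18 reversed and 8 newly passed. Reversed with usage against the gene, under TMM and RLE, were Kank1 (0.03), Thsd7a (0.03), Sf3b3 (-0.02), Itgav (-0.03) and Cd2bp2 (-0.24). With a library left out, Rpl6 ranged from -0.11 to 0.02, Nebl from -0.04 to 0.09 and Cd2bp2 from -0.12 to 0.25; none of these passed in the main test. The cause was not tested. Short extensions share most reads with their neighbour, and a short neighbour can share most of its own reads with the extension. Intervals cover the spread between these libraries alone and can be too narrow at low counts.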
